A study of Homo sapiens with 6 samples.

Results

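The genes described here are 10 members of the epidermal growth factor receptor (EGFR) system, taken by symbol from the 60604 genes of the count table. They are the receptors EGFR, ERBB2 and ERBB3, the ligands HBEGF, AREG, EREG and TGFA, and the inhibitors ERRFI1, LRIG1 and LRIG3. All 10 were found once in the table, and 8 of them held enough counts to be tested. TGFA and LRIG3 did not. The RNA came from MIA PaCa-2, a long-used line of human pancreatic cancer cells whose genotype is labelled WT. In the BP+Huaier group, cells received 12.5 µg/ml black phosphorus (BP, phosphorus in thin stacked layers) together with 10 mg/ml Huaier, an extract of a medicinal fungus. In the BP group, cells received 12.5 µg/ml BP without Huaier. Each group held 3 libraries and BP was present in all 6, so every difference given here is between BP with Huaier and BP without it. Batches of culture or preparation are not labelled, and their part in the differences was not tested.

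The EGFR family consists of receptor tyrosine kinases at the cell surface. Ligands are made as membrane-bound precursors, are released by proteases, and bring receptors together in pairs that phosphorylate each other and signal through RAS and ERK and through PI3 kinase. ERBB2 has no known ligand of its own and ERBB3 has a weak kinase, so both act mainly as partners. The pathway also switches on its own brakes, among them the cytoplasmic inhibitor ERRFI1, and LRIG1, a membrane protein that promotes removal of the receptors.

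With Huaier added, 3 ligands and 1 inhibitor rose and 1 receptor fell. HBEGF rose 8.06-fold, AREG 2.84-fold and EREG 1.75-fold, the inhibitor ERRFI1 rose 1.52-fold, and EGFR itself fell 2.11-fold. ERBB2, ERBB3 and LRIG1 did not pass the test. Thus 4 of the 8 tested members were called higher and 1 was called lower, where 14.4% of all 15022 tested genes were called higher, 15.0% lower and 29.3% in either direction (edgeR quasi-likelihood test, Benjamini-Hochberg adjusted p under 0.05 over all tested genes). Among the 12459 tested protein-coding genes the shares were 16.6% higher and 12.8% lower. The same 5 members had no overlap between groups, 4 higher and 1 lower, against 21.9% of all tested genes higher, 24.9% lower and 46.8% in either direction. The 8 tested members had at least 67 counts in every library, so none of them passed the filter on low counts through 1 group alone. The members were chosen with earlier results of these data known, so their share of calls is not an independent result.

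Total counts on genes lay between 15657593 and 17036565 per library. BP+Huaier 3 stood between the rest of its group and BP. Its place on the leading principal component (72.4% of the variance) was 11.46, compared with 65.1 for BP+Huaier 1, 65.99 for BP+Huaier 2 and -50.5 to -43.4 for BP. Whether replicate libraries derive from independent cultures is not labelled, and the p-values therefore rest on a between-library spread that may be purely technical. The keratins KRT8 and KRT18 and the filament protein VIM were abundant. CDKN2A, which is homozygously deleted in this line, was at 0 counts in all 6 libraries. However, the carcinoma epithelium markers EPCAM, CDH1, KRT7, KRT17 and LGALS4 were each below 0.3 CPM in every library. In the same list KRT18 (1.71-fold, edgeR adjusted p = 0.0368) and KRT19 (2.05-fold, 0.0173) were called higher. MUC1 was called lower (1.59-fold, edgeR adjusted p = 0.012), and KRT8 and VIM were not called. Of the lists of other cells, those of lymphocytes and of acinar and islet cells had no member that could be tested, with summed levels of at most 0.52 and 0.11 CPM. Markers of macrophages, fibroblasts and endothelium summed to 21.3 to 34.3, 386 to 489 and 12.1 to 14.7 CPM in BP+Huaier libraries. In BP libraries they summed to 41.0 to 45.9, 502 to 558 and 17.6 to 21.1 CPM. Most of these sums came from CD14 (21.04 to 34.1 CPM in BP+Huaier and 40.8 to 45.5 in BP, not called), COL1A2 (373 to 476 and 494 to 549 CPM, not called) and CDH5, which was called lower (11.7 to 14.7 and 17.3 to 21.1 CPM, edgeR adjusted p = 0.0298). The fibroblast marker COL1A1 was called higher, with a log2 fold change of 2.14 (5.19 to 6.43 CPM in BP+Huaier and 1.22 to 1.42 CPM in BP, edgeR adjusted p = 0.000887). CD163, DCN, LUM and TEK were at 0 in both groups. Every other untested marker of macrophages, fibroblasts and endothelium had at most 0.96 CPM in any library (PDGFRB in BP+Huaier 2). The part of these markers in the results was not tested.

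The promoters of the 3 ligands that rose and of EGFR are shown because these are the members whose transcripts differed most between the groups. Each is 300 bases long, from 250 before to 50 after a transcription start given by RefSeq (build GRCh38.p14), read 5′ to 3′ on the strand of the gene. Capitals mark a match to the cAMP response element TGACGTCA. The AP-1 site TGACTCA and the CArG box bound by serum response factor were also searched, all on both strands.

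HBEGF, chr5:140346554-140346853, minus strand: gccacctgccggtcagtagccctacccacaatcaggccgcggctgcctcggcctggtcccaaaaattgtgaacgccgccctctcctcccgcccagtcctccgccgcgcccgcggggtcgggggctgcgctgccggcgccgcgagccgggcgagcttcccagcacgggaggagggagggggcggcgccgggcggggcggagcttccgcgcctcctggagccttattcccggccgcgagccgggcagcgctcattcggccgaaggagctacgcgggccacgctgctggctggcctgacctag

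AREG, chr4:74444886-74445185, plus strand: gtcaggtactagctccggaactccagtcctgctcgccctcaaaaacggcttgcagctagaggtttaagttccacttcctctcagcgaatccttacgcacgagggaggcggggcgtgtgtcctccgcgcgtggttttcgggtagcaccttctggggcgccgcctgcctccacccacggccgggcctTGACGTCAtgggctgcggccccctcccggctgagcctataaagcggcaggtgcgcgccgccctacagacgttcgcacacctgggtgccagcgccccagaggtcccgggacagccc

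EREG, chr4:74364895-74365194, plus strand: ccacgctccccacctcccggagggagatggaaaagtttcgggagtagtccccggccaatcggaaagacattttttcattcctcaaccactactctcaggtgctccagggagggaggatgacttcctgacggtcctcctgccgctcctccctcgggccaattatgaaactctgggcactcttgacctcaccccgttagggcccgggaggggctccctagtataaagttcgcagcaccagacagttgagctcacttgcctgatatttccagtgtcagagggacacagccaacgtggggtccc

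EGFR, chr7:55018767-55019066, plus strand: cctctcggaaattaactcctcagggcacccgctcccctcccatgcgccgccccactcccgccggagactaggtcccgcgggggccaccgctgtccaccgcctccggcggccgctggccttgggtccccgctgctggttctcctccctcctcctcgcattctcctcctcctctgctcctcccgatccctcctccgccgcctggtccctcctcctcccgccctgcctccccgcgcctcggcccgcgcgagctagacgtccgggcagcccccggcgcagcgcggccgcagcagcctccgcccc

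AREG was the ligand with a match, a full TGACGTCA whose first base lies at position -65 (the first transcribed base is 1 and the base before it is -1). That element occurs in 1.85% of the 35116 promoter windows of the RefSeq table. None of the 3 motifs was found in the HBEGF, EREG and EGFR windows shown. All windows of the members were searched, and ERBB3 had no window. Of the 2 windows of EGFR, that at an inner start holds AP-1 matches at -232 and -136. Of the 4 windows of LRIG1, that at an inner start holds AP-1 matches at -166 and -77. The other members apart from AREG had no match. An AP-1 match occurs in 4.95% of all windows and a CArG box in 1.29%. These shares are per window, so a gene with several windows is likelier to hold a match. A match describes letters in a window, not a site in use.

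Among the receptors, EGFR (ENSG00000146648.20, GRCh38 chromosome 7, 55019017 to 55211628, plus strand), which binds all 4 of the ligands studied here, had 62.6, 61.5 and 77.2 CPM in BP+Huaier libraries 1, 2 and 3, against 144.56, 145.06 and 135.89 CPM in BP libraries 1, 2 and 3. CPM (counts of a gene over the library total, per 1000000) were scaled between libraries by the trimmed mean of M values (TMM). The groups did not overlap, and the highest BP+Huaier value was that of library 3. The mean was 67.1 ± 8.76 CPM in BP+Huaier and 141.8 ± 5.16 CPM in BP (SD, n = 3 each), a log2 fold change of -1.08 ± 0.14 (SE; 95% interval -1.40 to -0.76; edgeR adjusted p = 0.0017). The fall was called in all 16 other settings tried, with log2 fold changes between -1.33 and -0.88. Of the 15022 tested genes, 1506 had a lower log2 fold change than EGFR. Of the exon bases of EGFR, 1.5% overlapped the antisense gene EGFR-AS1, which had at most 4 counts in any library.

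ERBB2 (ENSG00000141736.14, chromosome 17, 39687914 to 39730426, plus strand), the receptor known as HER2, had 227, 198 and 152 CPM in BP+Huaier libraries 1, 2 and 3, against 189, 170 and 205 CPM in BP libraries 1, 2 and 3. The groups overlapped, with both the highest and the lowest value in BP+Huaier. Its log2 fold change was 0.03 ± 0.17 (SE; 95% interval -0.35 to 0.42; edgeR adjusted p = 0.89), so a change of up to about that interval cannot be told from none at this depth and spread. The sign of this small difference turned in 6 of 16 other settings, among them scaling by library size alone (-0.25). On the opposite strand, exons of MIEN1 overlapped 5.5% and those of PGAP3 1.4% of the exon bases of ERBB2. MIEN1 had 922 to 1035 counts in BP+Huaier libraries and 677 to 814 in BP libraries. The sources used here do not give whether the counting used strand, so the level of ERBB2 is uncertain to that extent.

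ERBB3 (ENSG00000065361.17, chromosome 12, 56076799 to 56103505, plus strand), the partner that links the family to PI3 kinase, had 21.0, 22.3 and 20.6 CPM in BP+Huaier libraries 1, 2 and 3, against 21.8, 21.9 and 23.2 CPM in BP libraries 1, 2 and 3. All 6 values lay close together and the groups overlapped. The log2 fold change was -0.06 ± 0.14 (SE; 95% interval -0.37 to 0.24; edgeR adjusted p = 0.74).

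Among the ligands, HBEGF (ENSG00000113070.8, chromosome 5, 140332843 to 140346603, minus strand), a heparin-binding ligand of EGFR and ERBB4, had 42.4, 67.5 and 33.2 CPM in BP+Huaier libraries 1, 2 and 3, against 5.66, 5.85 and 6.20 CPM in BP libraries 1, 2 and 3. The groups did not overlap, the lowest BP+Huaier value being that of library 3, and the BP libraries differed little among themselves. The mean was 47.7 ± 17.7 CPM in BP+Huaier and 5.90 ± 0.28 CPM in BP (SD, n = 3 each), a log2 fold change of 3.01 ± 0.27 (SE; 95% interval 2.41 to 3.61; edgeR adjusted p = 0.00062). Of all 15022 tested genes, 16 had a larger log2 fold change. Without BP+Huaier 2, the library with the highest value, the log2 fold change was 2.69 and still called (edgeR adjusted p = 0.00112).

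AREG (ENSG00000109321.11, chromosome 4, 74445136 to 74455005, plus strand) encodes amphiregulin, a low-affinity ligand of EGFR. It had 310.3, 415 and 305 CPM in BP+Huaier libraries 1, 2 and 3, against 115, 124 and 124 CPM in BP libraries 1, 2 and 3. The groups did not overlap, and BP+Huaier 3 was at about the level of BP+Huaier 1. The mean was 343 ± 62.0 CPM in BP+Huaier and 121 ± 4.94 CPM in BP (SD, n = 3 each), a log2 fold change of 1.50 ± 0.16 (SE; 95% interval 1.14 to 1.87; edgeR adjusted p = 0.00089). In 238 tested genes the log2 fold change was larger.

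EREG (ENSG00000124882.4, chromosome 4, 74365145 to 74388749, plus strand) encodes epiregulin, a ligand of EGFR and ERBB4. It had 624, 772 and 784.5 CPM in BP+Huaier libraries 1, 2 and 3, against 393, 484 and 370.1 CPM in BP libraries 1, 2 and 3. The groups did not overlap, and here BP+Huaier 3 was the library farthest from the BP group. Before scaling, BP 2 held 9100 counts, more than the 8930 of BP+Huaier 1, so the separation of the groups rests on the scaling between libraries. The mean was 727 ± 89.2 CPM in BP+Huaier and 416 ± 60.5 CPM in BP (SD, n = 3 each), a log2 fold change of 0.81 ± 0.16 (SE; 95% interval 0.43 to 1.18; edgeR adjusted p = 0.0086). A larger log2 fold change than that of EREG was found in 1240 tested genes. EREG was no longer called when BP 1 (edgeR adjusted p = 0.0568) or BP 3 (0.0504) was left out, or with scaling by library size alone (0.0521). Its adjusted p lay between 1.3e-05 and 0.0568 over 16 other settings.

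TGFA (ENSG00000163235.16, chromosome 2, 70447284 to 70554193, minus strand), the ligand TGF-alpha, had 0, 4 and 6 counts in BP+Huaier libraries 1, 2 and 3, against 0, 0 and 0 counts in BP libraries 1, 2 and 3. At these depths 3 counts, taken as the floor per library, correspond to 0.173 to 0.222 CPM in BP+Huaier and to 0.160 to 0.177 CPM in BP, so TGFA was at or near the floor in all libraries. It was tested when no filter on low counts was used, and was then called higher (edgeR adjusted p = 0.0314) on these 10 counts.

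Among the inhibitors, ERRFI1 (ENSG00000116285.13, chromosome 1, 8004404 to 8026309, minus strand), also named MIG6, binds the kinase domain of EGFR and blocks it. It had 1397, 1481 and 1829 CPM in BP+Huaier libraries 1, 2 and 3, against 998, 1169 and 928 CPM in BP libraries 1, 2 and 3. The groups did not overlap, and BP+Huaier 3 was again the library farthest from BP. The mean was 1569 ± 229 CPM in BP+Huaier and 1032 ± 124 CPM in BP (SD, n = 3 each), a log2 fold change of 0.60 ± 0.17 (SE; 95% interval 0.23 to 0.98; edgeR adjusted p = 0.027). ERRFI1 was no longer called when BP 1, BP 2, BP 3 or BP+Huaier 2 was left out (edgeR adjusted p = 0.123, 0.0664, 0.113 and 0.0642), when only genes of at least 5 CPM were tested (0.0526), or with scaling by library size alone (0.182). Before scaling, BP 2 held 21959 counts, more than the 20000 and 20040 of BP+Huaier 1 and 2. The separation of the groups therefore rests on the scaling here too. A larger log2 fold change than that of ERRFI1 was found in 2101 tested genes.

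LRIG1 (ENSG00000144749.14, chromosome 3, 66378797 to 66501263, minus strand) had 4.68, 6.95 and 6.92 CPM in BP+Huaier libraries 1, 2 and 3, against 4.28, 3.94 and 5.91 CPM in BP libraries 1, 2 and 3. The groups overlapped through BP+Huaier 1 and BP 3. Its log2 fold change was 0.40 ± 0.24 (SE; 95% interval -0.15 to 0.95; edgeR adjusted p = 0.24). The exons of SLC25A26 on the opposite strand overlapped 12.9% of the exon bases of LRIG1, and the sources used here do not give whether the counting used strand, so the level of LRIG1 is uncertain to that extent. LRIG3 (ENSG00000139263.12, chromosome 12, 58872149 to 58920504, minus strand), a relative of LRIG1, had 1, 1 and 0 counts in BP+Huaier libraries 1, 2 and 3, against 0, 0 and 0 counts in BP libraries 1, 2 and 3, below the floor throughout.

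**Figure D1:**
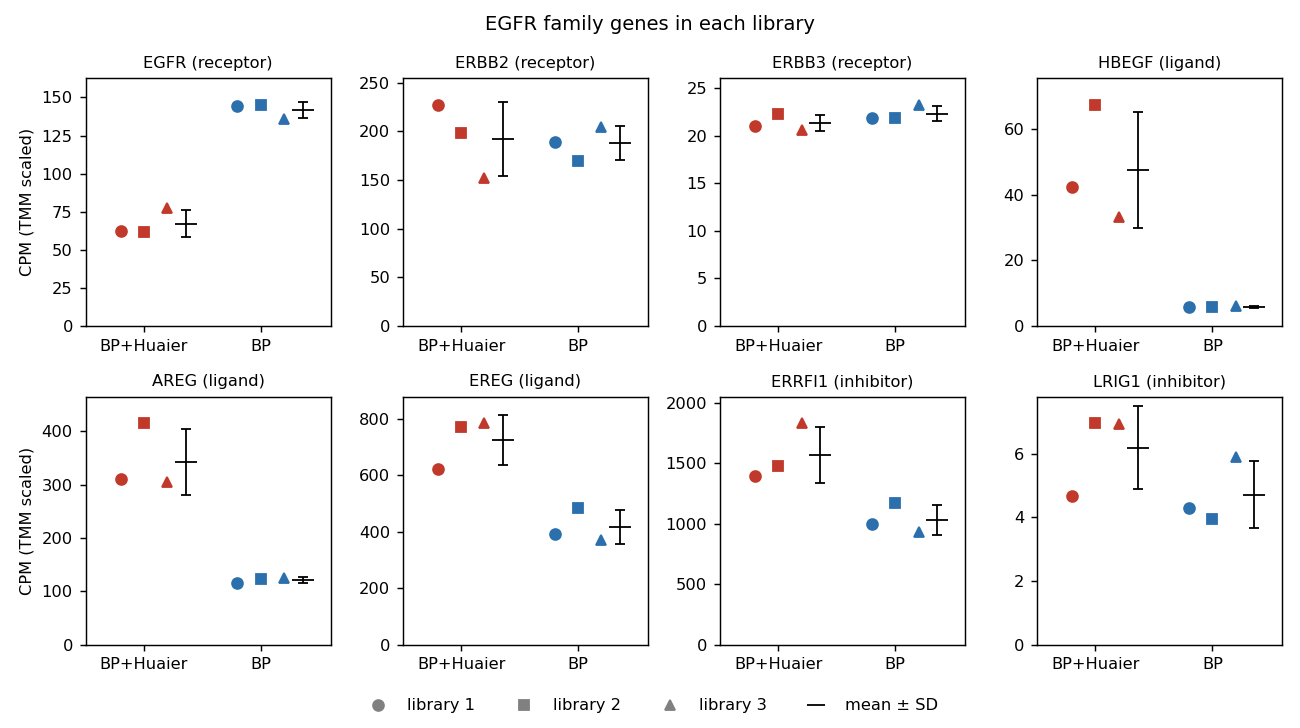
CPM scaled by TMM (vertical axes, each from 0) of the 8 tested genes in the 3 BP+Huaier libraries (red, left) and the 3 BP libraries (blue, right), with symbols for libraries 1 to 3 and black bars for the mean ± SD. EGFR lies lower, and HBEGF, AREG, EREG and ERRFI1 lie higher, in every BP+Huaier library than in any BP library, while ERBB2, ERBB3 and LRIG1 overlap.

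**Figure D2:**
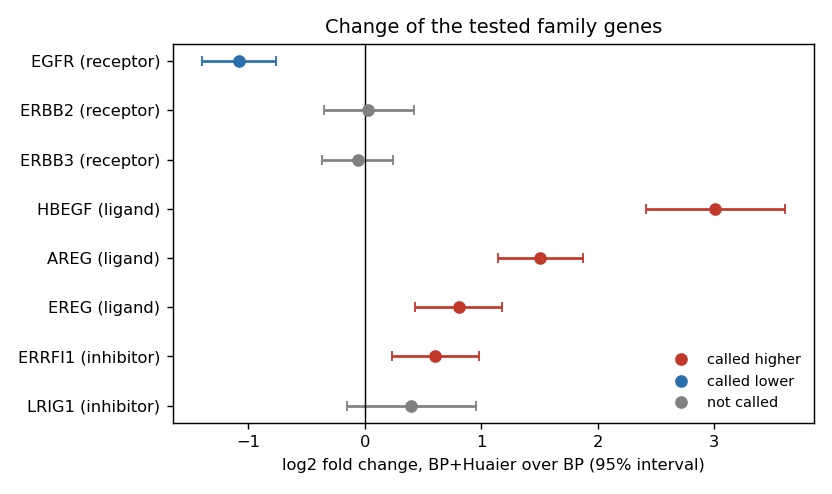
Log2 fold change of BP+Huaier over BP (horizontal axis) with its 95% interval for the 8 tested genes, grouped from receptors at the top to inhibitors at the bottom. The intervals run from -1.40 to -0.76 for EGFR and from 2.41 to 3.61 for HBEGF, and those of ERBB2, ERBB3 and LRIG1 span 0.

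The scaling between libraries mattered for the smaller changes. Over all tested genes, the median log2 fold change was -0.28 with scaling by library size alone, against -0.02 with TMM. Relative to that median, the changes were -1.05 for EGFR, 3.00 for HBEGF, 1.51 for AREG, 0.83 for EREG and 0.64 for ERRFI1. With TMM and relative to the TMM median they were -1.06, 3.03, 1.53, 0.83 and 0.63 in the same order of genes. A change of scaling moves all genes by about the same amount, so this likeness was fixed in advance and is no further check.

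Levels of different genes were compared as TPM, which are counts divided by the exon length of the gene and scaled to a sum of 1000000 in each library. TPM are not scaled by TMM and were used to order genes within a library and to form ratios within it, not to test groups. In BP+Huaier the order was ERRFI1 (1301 ± 429 TPM), AREG (705 ± 114.5), EREG (437 ± 117), ERBB2 (62.1 ± 4.03), HBEGF (52.8 ± 14.8), EGFR (18.6 ± 5.84), ERBB3 (6.19 ± 0.92) and LRIG1 (3.03 ± 1.005; SD, n = 3). HBEGF and ERBB2 overlapped there, and no other neighbours in this order did. In BP the order was ERRFI1 (1061 ± 151 TPM), AREG (316 ± 13.5), EREG (313 ± 52.3), ERBB2 (77.9 ± 5.41), EGFR (48.7 ± 2.89), HBEGF (8.47 ± 0.27), ERBB3 (8.165 ± 0.13) and LRIG1 (2.86 ± 0.57; SD, n = 3). There AREG overlapped with EREG and HBEGF with ERBB3. HBEGF thus stood above EGFR in each BP+Huaier library and below EGFR in each BP library.

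**Figure D3:**
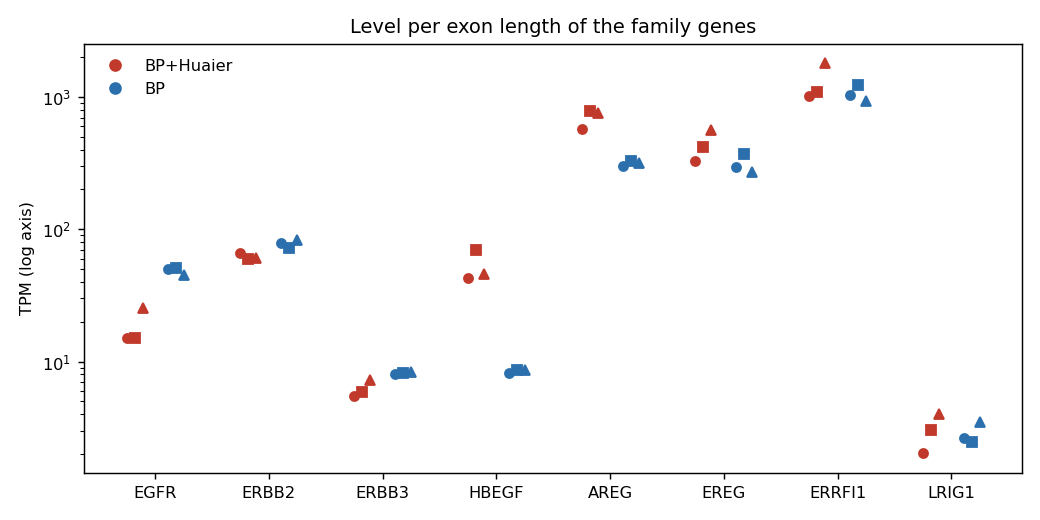
TPM on a log axis (vertical) of the 8 tested genes in the 3 BP+Huaier libraries (red, left of each pair) and the 3 BP libraries (blue, right), with symbols for libraries 1 to 3. ERRFI1, AREG and EREG are the most abundant in both groups, and HBEGF is above EGFR in the BP+Huaier libraries and below it in the BP libraries.

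Ratios within a library do not depend on the scaling. The summed TPM of the 4 ligands was 62.4, 83.5 and 54.1 times that of EGFR in BP+Huaier libraries 1, 2 and 3, against 12.2, 13.96 and 13.1 times in BP libraries 1, 2 and 3. The groups did not overlap in this ratio of transcripts, which says nothing of the amounts of protein. HBEGF made up 4.5%, 5.5% and 3.3% of the ligand sum in BP+Huaier and 1.3%, 1.2% and 1.5% in BP. EREG made up 35.0%, 32.9% and 41.1% in BP+Huaier and 48.8%, 52.3% and 45.5% in BP, and AREG took 60.5%, 61.6% and 55.5% in BP+Huaier and 49.8%, 46.4% and 53.0% in BP. Of the summed TPM of the 3 receptors, EGFR made up 17.4%, 18.9% and 27.2% in BP+Huaier and 36.5%, 38.8% and 33.3% in BP. None of these shares overlapped between the groups, but 3 libraries against 3 cannot give an exact two-sided permutation p below 0.1, and no p is given. Of all tested genes, 46.8% had no overlap between groups. The ratio and the shares are formed from the same counts as the calls above, and the ligand shares depend on one another. They are therefore not separate results.

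EREG and AREG are neighbours on chromosome 4, with 56386 bases between the end of EREG and the start of AREG, both on the plus strand. Within 500000 bases of the pair lie 12 protein-coding genes including both, of which 10 were tested. The 2 further EGFR ligands in that window did not rise. BTC (betacellulin, a ligand of EGFR and ERBB4, 74744759 to 74794523) had 3.56, 3.55 and 2.36 CPM in BP+Huaier libraries 1, 2 and 3, against 10.98, 9.10 and 7.62 CPM in BP libraries 1, 2 and 3. It fell 2.94-fold (log2 fold change -1.56 ± 0.24, SE; edgeR adjusted p = 0.00302) and was called lower without each library in turn. EPGN (epigen, a low-affinity EGFR ligand, 74308470 to 74316789) averaged 3.64 ± 0.42 CPM in BP+Huaier and 4.71 ± 0.48 CPM in BP (SD, n = 3 each) and was not called (edgeR adjusted p = 0.195). Of the other tested genes in the window, the chemokine genes CXCL1, CXCL2, CXCL3 and CXCL5 and the genes MTHFD2L and PARM1, none was called.

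Of the other receptors and ligands, ERBB4, the remaining receptor, was at 0 counts in all 6 libraries, and the ligand genes EGF, NRG1, NRG3 and NRG4 were each at most 0.66 CPM in any library and were not tested. NRG2, a neuregulin, averaged 4.91 ± 1.23 CPM in BP+Huaier and 2.97 ± 0.56 CPM in BP (SD, n = 3 each), and the groups overlapped (edgeR adjusted p = 0.0668). It was called higher without BP+Huaier 3 (edgeR adjusted p = 0.00236), by DESeq2 and with no filter on low counts.

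Of 8 tested genes of ligand shedding, the step that frees the ligands from the membrane, FRMD8, a stabiliser of the shedding complex, was called higher (1.49-fold) and RHBDF2, the iRhom that guides the protease ADAM17, was called lower (1.32-fold), with a list median log2 fold change of -0.03 and the same all-gene shares of 14.4% higher and 15.0% lower. ADAM17, the main sheddase of these ligands, had 63.2, 69.4 and 87.0 CPM in BP+Huaier libraries 1, 2 and 3, against 62.8, 64.8 and 63.1 CPM in BP libraries 1, 2 and 3, and was not called (edgeR adjusted p = 0.32). Of 18 tested genes of receptor ubiquitination and trafficking, 3 were called higher and 1 lower, with a median of 0.09. These counts lie near the 14.4% of all tested genes called higher and below the 15.0% called lower. HGS, which sorts ubiquitinated receptors on endosomes, and the ubiquitin ligase RNF126 rose 1.53-fold and 1.47-fold, and the deubiquitinase USP8, which acts on EGFR at endosomes, fell 1.64-fold. CBL, the main ubiquitin ligase of EGFR, averaged 98.9 ± 27.0 CPM in BP+Huaier and 90.2 ± 9.72 CPM in BP (SD, n = 3 each) and was not called (edgeR adjusted p = 0.63). ADAM17 and CBL were chosen after their values were seen.

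Of 21 tested adaptors and proximal signalling genes, 4 were called higher and 2 lower, with a median of 0.11, where 14.4% of all tested genes were called higher and 15.0% lower. GAB2, a docking protein that recruits PI3 kinase and SHP2, rose 2.93-fold, with 19.4, 21.1 and 17.4 CPM in BP+Huaier libraries 1, 2 and 3, against 6.59, 6.01 and 7.09 CPM in BP libraries 1, 2 and 3 (edgeR adjusted p = 0.00089). SOS1, the exchange factor that activates RAS, fell 2.04-fold, and PIK3R3, a regulatory subunit of PI3 kinase, fell 1.70-fold. Of 12 genes of the RAS-RAF-MEK-ERK cascade, 4 were called higher and 0 lower, with a median of 0.19, beside the same 14.4% and 15.0% of all tested genes. MAP2K1 and MAP2K2, the kinases MEK1 and MEK2, rose 1.68-fold and 1.66-fold, and HRAS rose 1.58-fold although its groups overlapped.

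The list of ERK output genes had the most calls, 12 of 18 higher and 2 lower, with a median log2 fold change of 0.95. Of all tested genes 14.4% were called higher and 15.0% lower, and their median was -0.02. DUSP5, a phosphatase of ERK, rose 6.34-fold, IER3, an early response gene, rose 4.49-fold, and FOSL1, an AP-1 subunit, rose 3.44-fold. The ERK feedback inhibitors SPRY4 and DUSP6 rose as well, SPRY4 with 610, 802 and 613 CPM in BP+Huaier libraries 1, 2 and 3, against 234, 239 and 230.4 CPM in BP libraries 1, 2 and 3. SPRED3 and the receptor EPHA4 were the 2 called lower, with log2 fold changes of -1.31 and -0.79, and the cyclin CCND1 was not called (log2 fold change 0.14, edgeR adjusted p = 0.393). These genes answer to several pathways besides EGFR, and the source of their change was not tested. SPRY4, DUSP6, SPRED3, EPHA4 and CCND1 were chosen after their values were seen. The list itself was chosen with earlier results of these data known, so its share of calls is not an independent result.

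With each library left out in turn, the ERK output genes gave 9 to 12 higher and 1 to 4 lower calls. Most of the other lists varied more with the library left out, and so did the calls over all tested genes. With all libraries 2160 of 15022 tested genes were called higher. That number was 810 of 15361 without BP 1, 834 of 15287 without BP 2 and 1021 of 15446 without BP 3. It was 952 of 15657 without BP+Huaier 2 and 4452 of 15448 without BP+Huaier 3, with 4793 lower in the latter. The cascade gave 4 calls higher with all libraries, 0 without BP 2, BP 3 or BP+Huaier 2, and 5 without BP+Huaier 3. Adaptor genes called higher numbered 1 without each of BP 1, BP 2, BP 3 and BP+Huaier 2, and 10 without BP+Huaier 3, with 7 lower. Of the named genes, GAB2, DUSP5, IER3 and FOSL1 were called without each library in turn. The calls of FRMD8, RHBDF2, HGS, RNF126, USP8, SOS1, MAP2K2 and HRAS were lost without any of BP 1, BP 2, BP 3 and BP+Huaier 2, with an edgeR adjusted p of up to 0.196. Those of RHBDF2, RNF126, USP8, MAP2K2 and HRAS were also lost when BP+Huaier 1 was left out. With a trend over GC content and length removed, the log2 fold changes of USP8, HGS, RNF126, FRMD8 and HRAS were -0.14, 0.21, 0.19, 0.22 and 0.28 and none was called (edgeR adjusted p = 0.295, 0.0801, 0.161, 0.0587 and 0.061). That of MAP2K2 was 0.36 and still called (edgeR adjusted p = 0.0476). With scaling by library size alone, FRMD8, USP8, RNF126, MAP2K2 and HRAS were not called (edgeR adjusted p between 0.0513 and 0.146). PIK3R3 was not called when BP 1, BP 3 or BP+Huaier 2 was left out (edgeR adjusted p up to 0.0661). MAP2K1 was not called when BP 2, BP 3 or BP+Huaier 2 was left out (edgeR adjusted p up to 0.0596).

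**Figure D4:**
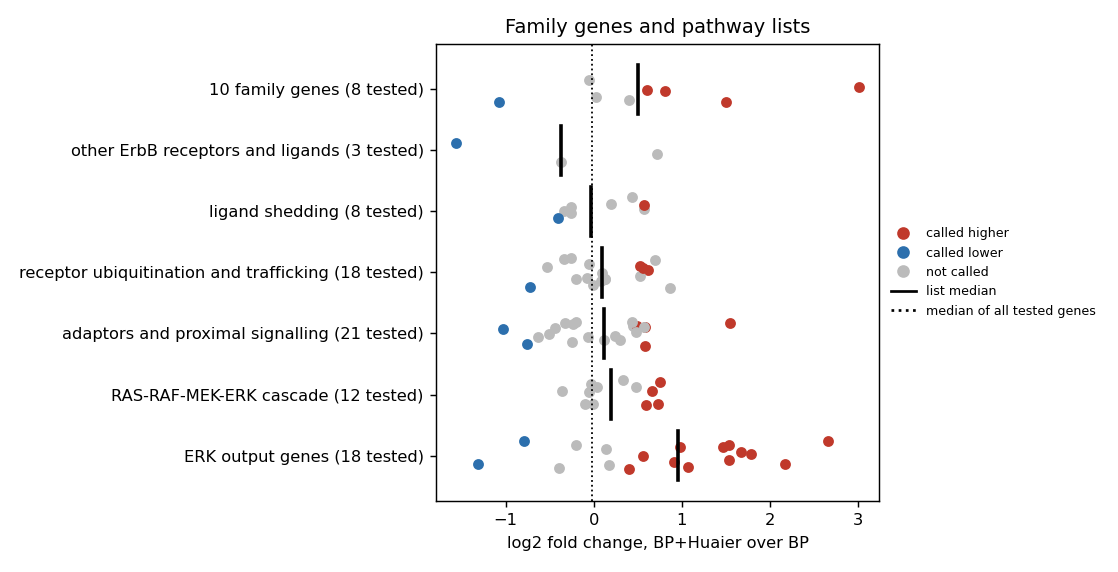
Log2 fold change of BP+Huaier over BP (horizontal axis) of each tested gene of the family and of 6 pathway lists, with red points for genes called higher, blue for lower and grey for not called, a black bar for the list median and a dotted line for the median of all tested genes (-0.02). Of the 6 pathway lists, ERK output genes have the highest median, 0.95, and 12 of 18 of their points are red. The lists were chosen with earlier results of these data known.

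**Figure D5:**
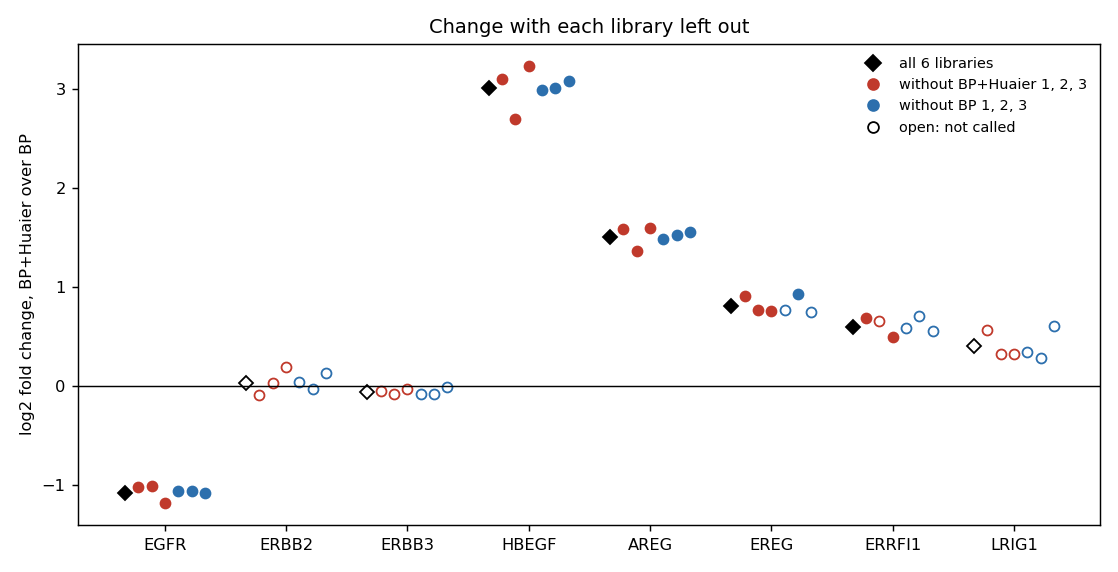
Log2 fold change of BP+Huaier over BP (vertical axis) of the 8 tested genes with all 6 libraries (black diamonds) and with each BP+Huaier (red) or BP (blue) library left out, where open symbols were not called. EGFR, HBEGF and AREG stay filled throughout, while EREG opens without BP 1 and BP 3, and ERRFI1 opens when any BP library or BP+Huaier 2 is left out.

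Genes most like a member were sought among 10600 genes of at least 5 CPM on average, as a description. Likeness was the distance between centred log2(CPM + 0.5) values over the 6 libraries. These values hold the group difference, so like fold changes and like orders of libraries follow from the choice and are no separate result. The 3 nearest to EGFR were DENND5B, MTG1 and HENMT1, at distances of 0.13, 0.15 and 0.15 and with log2 fold changes of -1.16, -1.24 and -1.18. The 3 nearest to HBEGF were PIM1, PER1 and DUSP5, at 0.22, 0.30 and 0.37, with log2 fold changes of 2.86, 2.72 and 2.66. PIM1 had 256, 391 and 178 CPM in BP+Huaier libraries 1, 2 and 3, against 38.5, 38.6 and 36.5 CPM in BP libraries 1, 2 and 3, and shared with HBEGF the highest value in BP+Huaier 2 and the lowest of that group in BP+Huaier 3. The 3 nearest to ERRFI1 were SLC38A2, RCOR1 and NDEL1, at 0.07, 0.10 and 0.16, with log2 fold changes of 0.61, 0.60 and 0.61, and all 3, like ERRFI1, had their highest value in BP+Huaier 3.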

How the data were processed

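TRIzol extraction, a NEBNext Ultra kit and paired NovaSeq reads of 150 bases are given, per the labels' protocols. The submitters' processing notes name fastp 0.20.0, HISAT2 2.1.0, featureCounts 1.6.1 and GRCh38. Annotation release, strand and multi-mapping settings: not given in the sources used here. Each gene has an exon length and unnormalized integer counts as deposited. The 44 pseudoautosomal Y copies at 0 counts and the 3 lines of a broken gene were left out. Symbols matched 99.77% of IDs. Biotypes and transcript GC content came from GENCODE 29, and promoters from RefSeq.

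The test was run with edgeR 4.0.16 in R 4.3.3 (filterByExpr, TMM, robust quasi-likelihood test, group as the only term) over all 15022 genes that passed the filter. Its steps were also run on simulated data with equal spread in both groups. In the libraries the median within-group SD of log2 CPM was 0.315 in BP+Huaier and 0.129 in BP, and the simulated data do not cover that difference. The SE of a log2 fold change is the one implied by the test, its absolute value divided by the square root of the F statistic. Intervals are at 95% and were built from that SE. Alternatives were DESeq2 size factors, library size alone, DESeq2 1.42.0, limma-voom (limma 3.58.1) without and with a weight for each group, no filter, at least 5 CPM, protein-coding genes only, a replicate block, removal of a GC and length trend, each library left out, an adjusted p under 0.01 for the pathway lists, and longest-transcript lengths for TPM. Figures were drawn with matplotlib 3.10.9. Floors of 3 counts cover counting error only.

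The members and lists were chosen with earlier results of these data known. The rule named all members and the 8 other receptors and ligands, in each further list the 3 most changed called genes averaging at least 5 CPM, and the 3 genes nearest to EGFR, HBEGF and ERRFI1.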

Additional observations from a re-analysis of the deposited data

How the results depend on the processing

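EGFR, HBEGF and AREG kept their direction and call in all 16 alternatives, with log2 fold changes of -1.33 to -0.88, 2.69 to 3.23 and 1.23 to 1.64. EREG lost its call in 3 and ERRFI1 in 7. ERBB3 and LRIG1 kept their sign and were never called. ERBB2 turned negative with library size alone (-0.25), a minimum of 5 CPM (-0.06), only protein-coding genes (-0.02), the GC and length trend removed (-0.19), without BP 2 (-0.03) and without BP+Huaier 1 (-0.09), and was never called (range -0.09 to 0.19 with a library left out). Members called higher numbered 4, but 2 with library size alone and 2 to 4 with a library left out. Genes called higher numbered 2160, but 1051 with library size alone, 1357 with the replicate block and 810 to 4452 with a library left out. Genes called lower numbered 2246, but 1361 at 5 CPM and 909 to 4793 with a library left out, the lowest without BP 1 and the highest without BP+Huaier 3. Of the 80 tested genes of the 6 pathway lists, 24 were called higher, 12 of them ERK output genes, beside 14.4% of all tested genes. Those called higher numbered 12 with library size alone and 12 with the replicate block. They numbered 10 at an adjusted p under 0.01 and 10 to 36 with a library left out. Pathway list genes called lower numbered 7, beside 15.0% of all tested genes. That count was 3 at an adjusted p under 0.01 and 2 to 21 with a library left out. The cause was not tested. Deviations from the group means had correlations of 0.01, -0.06 and -0.28 between libraries of the same number. With 3 libraries per group these values cannot show whether the numbers pair the libraries, which the labels do not say. With the number as a block, ERRFI1 (edgeR adjusted p = 0.0758) was the member that lost its call. FRMD8, RHBDF2, HGS, RNF126, USP8, MAP2K2 and HRAS lost theirs too (0.0539 to 0.122). Longest-transcript lengths put ERBB3 (11.1 TPM) above HBEGF (7.26 TPM) in BP and changed no other order. TGFA and LRIG3 had too few counts to pass the filter of the main fit, and the reason for their low counts was not tested.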
